A study of Mus musculus with 15 samples.

Results

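The transcripts described here encode the aminoacyl-tRNA synthetases of mouse embryonic stem cells (mESCs). Members were chosen by name alone, as the transcripts whose GENCODE M21 symbol is a capital letter followed by ars, with or without a final 1 or 2, together with *Eprs*, *Farsa* and *Farsb*. This rule found 37 of the 21727 counted transcripts, of which 20 encode enzymes of the cytosol and 17, with the suffix 2, enzymes of mitochondria. All 37 passed the filter on low counts and were tested.

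The samples were E14Tg2a.4 mESCs grown with serum and LIF: WT cells, *Rps27-FLAG* cells and *Rps27l-FLAG* cells, the last pair homozygous for a 3xFLAG tag at the C terminus of the endogenous small-subunit ribosomal protein Rps27 or of its paralog Rps27l. Each line was represented by 3 independent clones, and all cells received 100 µg/mL cycloheximide for 2 min before lysis. Ribosome-protected fragments (RPFs) were counted from all pelleted ribosomes of the 9 clones (total RPFs) and, for the 6 tagged clones, from ribosomes pulled down with anti-FLAG beads (IP RPFs), which gave 15 libraries in 5 groups of 3. The comparisons ask whether tagging changed the RPFs and which mRNAs were over- or under-represented on ribosomes that carry each paralog. An IP from cells without a tag was not analysed here, so RNA that stays on the beads without a tagged ribosome was not measured.

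Aminoacyl-tRNA synthetases attach each amino acid to its tRNA and so set the reading of the genetic code. Vertebrate cells keep separate nuclear genes for most cytosolic and mitochondrial enzymes, and the mitochondrial enzymes are translated in the cytosol and imported into the organelle. *Gars* and *Kars*, for glycine and lysine, supply both compartments from one gene. Several cytosolic enzymes, among them the fused glutamyl-prolyl enzyme *Eprs*, are bound in a multisynthetase complex with the scaffold proteins *Aimp1*, *Aimp2* and *Eef1e1*. In embryonic stem cells, as in other dividing cells, cytosolic synthetases are housekeeping genes.

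Library totals lay between 3972152 and 8064166 counts, and the IP RPF libraries (at most 6673935) were smaller than most total RPF libraries (at least 6313827). All 11 mESC markers on the list used passed the filter, with a summed level of 4674 to 5590 normalized counts per 1000000 reads (CPM) over the 15 libraries. The 14 listed markers of endoderm, mesoderm, neuroectoderm and fibroblasts summed to at most 48.4 normalized CPM in any library and any of these lists. Replicate 1 stood apart in WT total, *Rps27-FLAG* total and *Rps27-FLAG* IP RPFs, with a chi-square per degree of freedom of 7.81 to 10.3 against the other clones, which differed from each other by 1.78 to 2.54. In the *Rps27l-FLAG* line it was replicate 3, with 4.59 to 7.99 against 3.30 and 4.18. The ratio of class medians in WT and the class differences in the IP are also given with 1 clone left out. No window of 28 nt in the CDS of a member was shared with another counted transcript.

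In WT total RPFs, every cytosolic synthetase transcript carried more footprints per length than every mitochondrial one. Levels between transcripts were compared as density, which is normalized CPM per kb of counted coding sequence (CDS). The median density was 245 ± 15.2 for the 20 cytosolic members and 18.8 ± 0.898 for the 17 mitochondrial members (mean and SD of 3 clones), a ratio of 13.03 ± 0.527. With class means in place of medians the ratio was 8.62 ± 0.381, and with 1 clone left out the ratio of medians lay between 12.7 and 13.2. The median over the 10082 tested transcripts with a counted CDS was 25.4 ± 0.105, so that all 20 cytosolic members lay above it and 11 of the 17 mitochondrial members below it. Cytosolic members together took 1.13 ± 0.0477% of a WT library and mitochondrial members 0.0937 ± 0.00126%. These levels are given without a test, since genes are not replicates. In bulk libraries such as these, fewer cells with a transcript and fewer footprints per cell cannot be told apart.

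**Figure D1:**
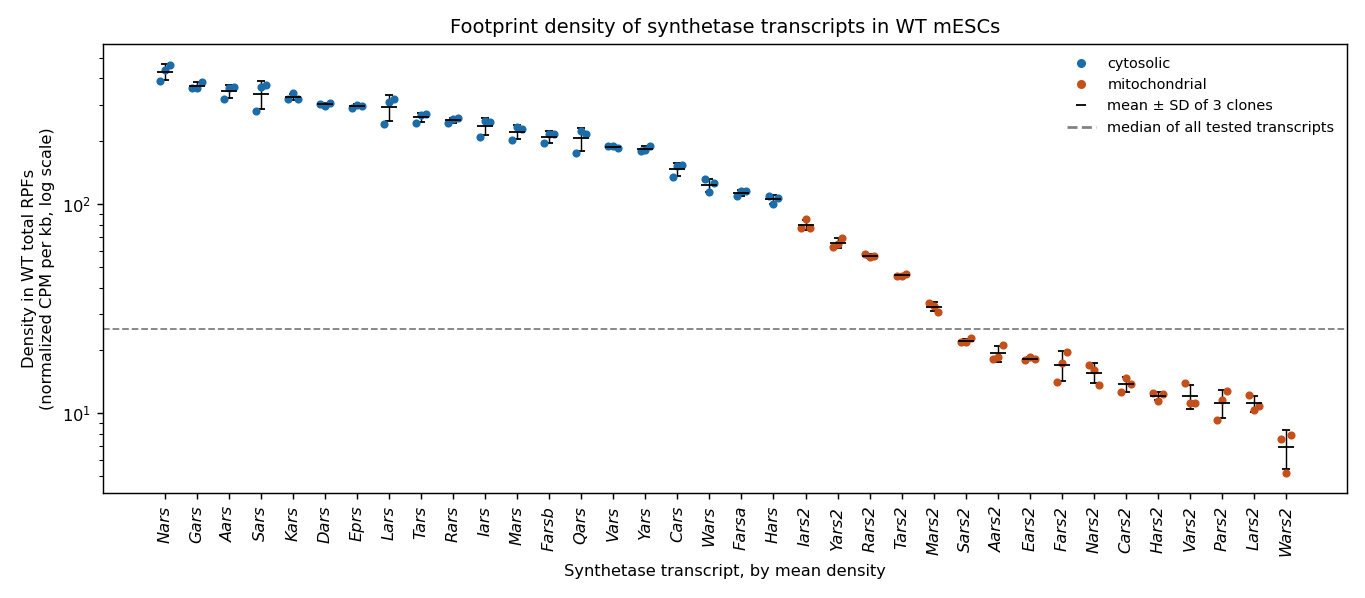
Footprint density of 36 synthetase transcripts in WT total RPFs, as normalized CPM per kb of counted CDS on a log axis. Points are the 3 clones, black marks the mean with SD, and the dashed line is the median of all tested transcripts (25.4). The lowest cytosolic member, *Hars*, lies above the highest mitochondrial member, *Iars2*.

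The highest density was that of *Nars*, the asparaginyl enzyme, with 390.3, 437 and 463 normalized CPM per kb in the 3 WT clones. It was followed by *Gars* with 360.4, 359.5 and 386. *Aars*, the alanyl enzyme, had 320.0, 361 and 365. The WT clones of *Nars* did not overlap those of *Gars*, while those of *Gars* overlapped those of *Aars*. At the other end of the class stood *Hars* (histidine), with 110.0, 100.2 and 107. *Farsa*, the catalytic alpha subunit of the phenylalanyl enzyme, had 109, 116 and 116. *Wars* (tryptophan) had 132, 114 and 126. The clones of these neighbours in the order overlapped, and even *Hars* stood at percentile 82.0 of all tested transcripts.

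The subunits of the phenylalanyl enzyme assemble in equal number, and their densities were unequal. *Farsb*, the beta subunit, had 196, 218 and 218 in the WT clones. The ratio of *Farsb* to *Farsa* was 1.85 ± 0.0539 in WT total RPFs and lay between 1.79 and 2.05 in all 15 libraries. Densities in footprint data hold differences in elongation speed and in library preparation as well as in output, which were not separated here. *Eprs*, whose CDS of 4536 nt is the longest among the members, had 289.6, 299.9 and 297. The 8 members of the multisynthetase complex (*Dars*, *Eprs*, *Iars*, *Kars*, *Lars*, *Mars*, *Qars* and *Rars*) had a median density of 265 ± 19.1, and the 12 other cytosolic members one of 200.2 ± 6.65.

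Promoters of several cytosolic members hold the letters of the C/EBP-ATF response element, a kind of site known to be bound by *Atf4* under amino acid stress. Sites are printed because they are a sequence feature that the choice of members did not use. RefSeq promoters (GRCm38.p6, 250 bases before to 50 after a start) matched 27 of the 37 members by symbol, *Mars* under its newer symbol. TGATGCAA, searched on both strands, stood in 4 of 13 matched cytosolic and 0 of 14 matched mitochondrial promoters, against 1.03% of all 27018 symbols with a promoter. The looser TGATGNAA, which contains the first motif, added *Gars* and was in 4.51% of all. Windows from 3 of the promoters are written 5′ to 3′ on the strand of the gene with the motif, or its reverse complement TTGCATCA, in capitals.
Iars: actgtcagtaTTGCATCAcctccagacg
Tars: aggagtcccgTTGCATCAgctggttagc
Yars: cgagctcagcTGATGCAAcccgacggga
The windows lie on GRCm38.p6 at chr13:49682127-49682154 (plus strand), chr15:11399656-11399683 (minus) and chr4:129189896-129189923 (plus). The motif began at base -15 from the annotated start in *Tars*, and downstream of it at base 8 in *Iars* and 4 in *Yars*. A match is a description of these letters, and binding was not measured.

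Among mitochondrial members *Iars2*, the isoleucyl enzyme (chromosome 1, 185284726 to 185329396, minus strand, GRCm38), had the highest density, with 76.8, 84.7 and 77.1 in the 3 WT clones. *Yars2* (tyrosine) followed with 62.6, 64.5 and 69.3. *Rars2* (arginine) had 57.9, 55.8 and 56.4. The clones of these 3 did not overlap, and those of *Tars2*, *Mars2* and *Sars2* did not overlap with their lower neighbour in the order either. The lowest was *Wars2*, the tryptophanyl enzyme (chromosome 3, 99141068 to 99220203, plus strand), with 7.55, 5.21 and 7.91, which rests on 19 to 85 counts per library over the 15 libraries. *Lars2* (leucine) had 12.3, 10.3 and 10.9. *Pars2* (proline) had 9.33, 11.6 and 12.8. *Wars2* lay below every WT clone of *Lars2*, and *Lars2* and *Pars2* overlapped.

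For 14 amino acids both enzymes were measured as separate transcripts, and the cytosolic one was the denser in every pair and every library. The ratio of cytosolic to mitochondrial density in WT was smallest for tyrosine (*Yars* over *Yars2*, 2.82 ± 0.0657) and isoleucine (*Iars* over *Iars2*, 2.98 ± 0.239). It was largest for leucine (*Lars* over *Lars2*, 26.4 ± 5.67) and asparagine (*Nars* over *Nars2*, 27.9 ± 5.47). The median of the 14 ratios was 9.73 ± 0.206 per WT clone. The smallest ratios were thus those of the densest mitochondrial members, *Iars2* and *Yars2*.

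**Figure D2:**
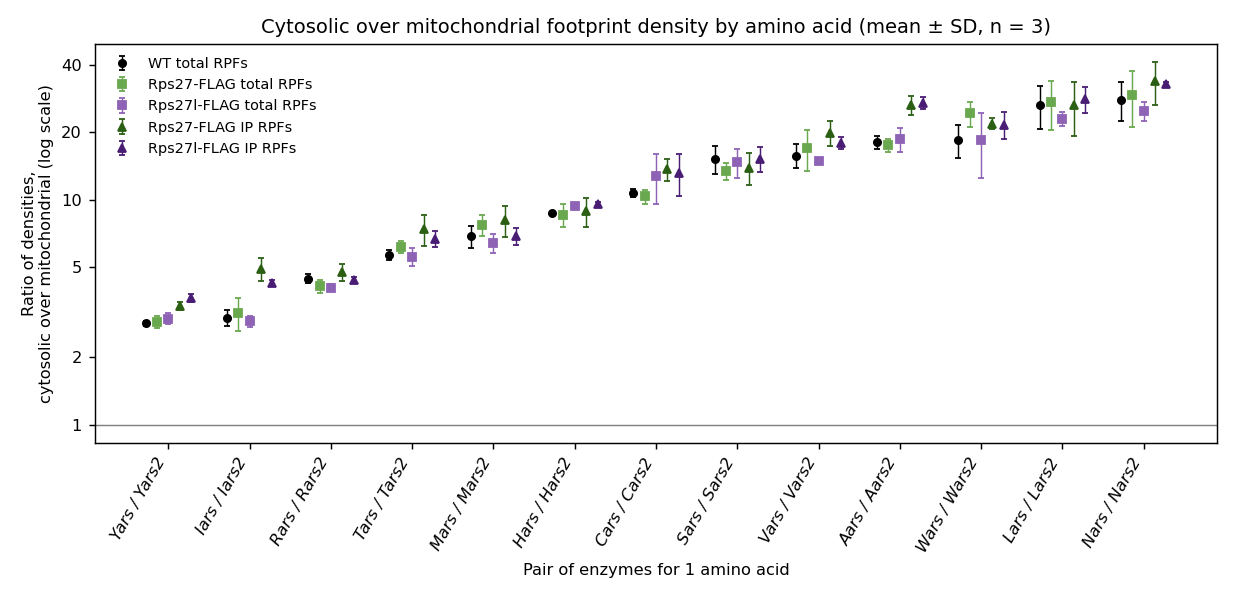
Ratio of cytosolic to mitochondrial density for 13 amino acids with both enzymes, on a log axis, as mean and SD of 3 clones in each of the 5 groups. All ratios lie above 1. The ratios for isoleucine and alanine are higher in the IP RPFs (triangles) than in the total RPFs (circles and squares).

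The same separation held in all 5 groups. The lowest cytosolic density in any of the 15 libraries was 99.6 (*Hars*) and the highest mitochondrial density 87.2 (*Iars2*). The ratio of the class medians was 13.5 ± 1.25 in *Rps27-FLAG* and 13.3 ± 0.154 in *Rps27l-FLAG* total RPFs. In the IP RPFs it was 16.7 ± 1.82 and 16.2 ± 0.913. Each IP library had a higher ratio than the total library of its own clone. Cytosolic members held between 1.06% and 1.18% of the counts of a library. Mitochondrial members held 0.0945 ± 0.00667% of *Rps27-FLAG* total and 0.0750 ± 0.00569% of *Rps27-FLAG* IP libraries. In the *Rps27l-FLAG* line these shares were 0.0933 ± 0.00178% and 0.0750 ± 0.00223%.

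Between the total RPFs of the 3 lines no synthetase transcript passed the test. With edgeR's quasi-likelihood test over all tested transcripts and an adjusted p under 0.05 (Benjamini-Hochberg), 0 of 37 members and 0% of all transcripts were called in each of the 3 comparisons, which share libraries, and voom with limma and DESeq2 also called 0 members. An unadjusted p under 0.05 was found for 3 members in *Rps27-FLAG* against WT (background 2.92%). In *Rps27l-FLAG* against WT there was 1 (5.69%), and in *Rps27l-FLAG* against *Rps27-FLAG* there were 7, all lower (5.75%). With the replicate number, which is the sequencing batch, as a block, 0 members passed in any of the 3. Over all transcripts 0.00992% passed in *Rps27-FLAG* against WT, while 1.43% and 1.36% did in the other comparisons, in the same order.

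In each of the 3 comparisons the largest fitted difference was that of *Wars2* or *Cars2*, members with few counts. *Wars2* had 4.63, 5.71 and 5.32 normalized CPM per kb in *Rps27-FLAG* and 6.76, 10.3 and 5.11 in *Rps27l-FLAG* total RPFs, and the groups overlapped. Its log2 fold change between these lines was 0.51 ± 0.27 (SE, adjusted p = 0.803 by edgeR). Its change against WT was -0.40 ± 0.27 in *Rps27-FLAG* (adjusted p = 0.999) and 0.12 ± 0.26 in *Rps27l-FLAG* (adjusted p = 0.938). *Cars2*, the cysteinyl enzyme, had 14.1, 15.8 and 16.1 in *Rps27-FLAG* and 8.97, 12.4 and 13.7 in *Rps27l-FLAG*, without overlap. The log2 fold change was -0.39 ± 0.16 (adjusted p = 0.803) between the tagged lines and -0.24 ± 0.16 (adjusted p = 0.829) for *Rps27l-FLAG* against WT. *Rars2* had the largest fitted increase in *Rps27-FLAG* over WT, with 66.3, 67.8 and 64.0 against 57.9, 55.8 and 56.4. These groups did not overlap, and the change was 0.22 ± 0.057 (adjusted p = 0.999).

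Of the cytosolic members with an unadjusted p under 0.05, *Vars* (valine) was lower in both tagged lines than in WT (-0.12 ± 0.053 in *Rps27-FLAG* and -0.13 ± 0.053 in *Rps27l-FLAG*, adjusted p = 0.999 and 0.821). *Tars* (threonine) was higher in *Rps27-FLAG* than in both other lines (0.13 ± 0.053 against WT, adjusted p = 0.999, and -0.15 ± 0.053 for *Rps27l-FLAG* against *Rps27-FLAG*, adjusted p = 0.803). The others in the last comparison were *Farsb*, *Mars* and *Rars*, with *Cars2*, *Rars2* and *Sars2* of the mitochondrial class, and their log2 fold changes lay between -0.39 and -0.14.

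Cytosolic members differed little between lines. In *Rps27l-FLAG* against *Rps27-FLAG* total RPFs, 18 of 20 had a fitted change below 0, with a median of -0.10 and a range from -0.20 to 0.021. Over all tested transcripts the median was 0.0032 and 49.2% lay below 0. The groups of 5 cytosolic members did not overlap in this direction (25% of the class against 5.77% of all transcripts), and none passed the test. Without *Rps27l-FLAG* replicate 1 and with the replicate block, *Sars*, *Lars* and *Iars* were called lower (log2 fold change -0.32, -0.24 and -0.26), and against WT *Sars* and *Lars* (-0.27 and -0.22). In these fits 1.76% and 1.47% of all transcripts were called lower, in the same order.

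**Figure D3:**
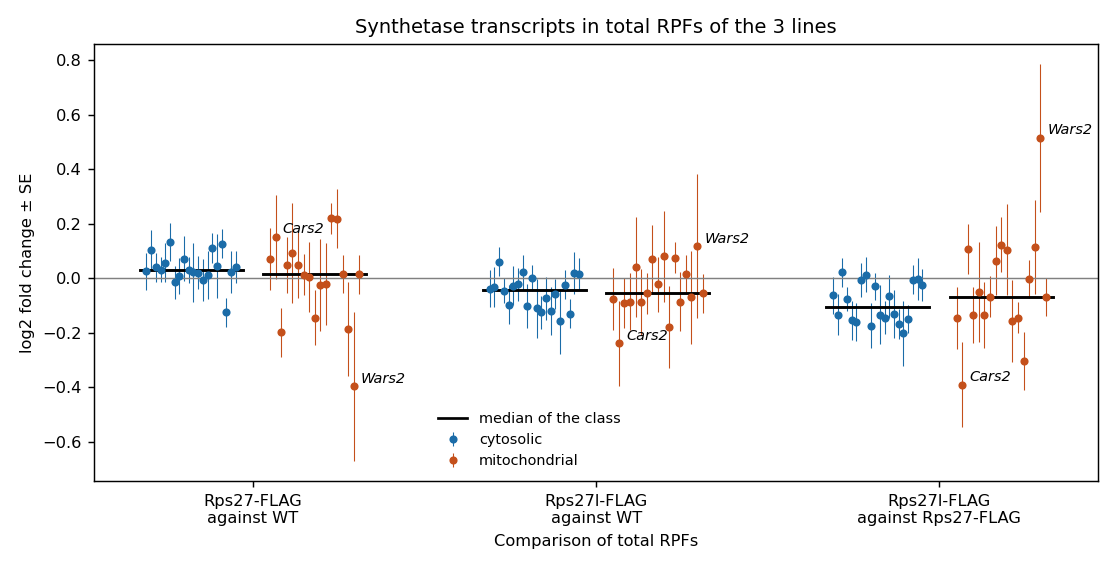
Log2 fold changes with SE of the 20 cytosolic and 17 mitochondrial members in the 3 comparisons of total RPFs, with the median of each class as a black bar. All cytosolic members lie between -0.20 and 0.13, and the widest values are those of *Wars2* and *Cars2*, which have few counts.

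In the *Rps27-FLAG* line the mitochondrial members were less represented in the IP RPFs than in the total RPFs, while the cytosolic members lay close to the median of all transcripts. The median log2 ratio of IP over total RPFs of the mitochondrial class was -0.23, -0.25 and -0.26 in the 3 clones. For the cytosolic class it was -0.025, -0.020 and -0.018, and for all tested transcripts -0.0090, -0.017 and -0.011. The difference between the classes was -0.23 ± 0.016 (SD, n = 3), and it lay between -0.23 and -0.22 with 1 clone left out. Of 17 mitochondrial members, 16 were lower in the IP RPFs of all 3 clones (94.1%), against 9 of 20 cytosolic members (45%) and 33.1% of all transcripts. *Wars2* was the exception, with clone ratios of 0.46, -0.047 and 0.091.

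Of single members, *Iars2*, *Aars2* and *Mars* fell in the IP RPFs of this line. These are 3 of 37, where 5.34% of all transcripts were called lower, and 0 members rose (0.337% of all). *Iars2* had 87.2, 72.6 and 80.9 normalized CPM per kb in total RPFs and 52.6, 48.6 and 50.0 in IP RPFs. The groups did not overlap, and the log2 fold change was -0.67 ± 0.080 (adjusted p = 0.00332). *Aars2*, the mitochondrial alanyl enzyme (chromosome 17, 45506841 to 45520843, plus strand), had 19.8, 19.6 and 21.6 in total and 15.8, 14.5 and 15.3 in IP RPFs, a change of -0.42 ± 0.082 (adjusted p = 0.0269). *Mars*, the cytosolic methionyl enzyme and part of the multisynthetase complex (chromosome 10, 127296221 to 127311786, minus strand), had 218, 229 and 231 in total and 175, 187 and 185 in IP RPFs, a change of -0.31 ± 0.057 (adjusted p = 0.0201). Neither *Aars2* nor *Mars* overlapped between the fractions. Without *Rps27-FLAG* replicate 2 or 3 no member was called, and without replicate 1 the count was 9 (7 lower, where 11.3% of all transcripts were, and *Aars* and *Farsb* higher, where 6.71% were).

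With the clone as a block, which compares each IP with the total RPFs of its own cells, 13 of 17 mitochondrial members fell (76.5%) and 0 rose. Of the 20 cytosolic members 5 fell (25%) and 2 rose, and over all transcripts 22.9% fell and 18.3% rose. Beside *Iars2* and *Aars2* the largest falls were those of *Pars2*, *Cars2* and *Vars2*. *Pars2* had 11.5, 10.7 and 11.0 in total and 6.88, 8.63 and 8.77 in IP RPFs (log2 fold change -0.48 ± 0.14, adjusted p = 0.00166 with the block and 0.126 without). *Cars2* had 14.1, 15.8 and 16.1 in total and 10.0, 11.4 and 12.8 in IP RPFs (-0.43 ± 0.11, adjusted p = 1.97e-04 and 0.110). In both the fractions did not overlap. *Vars2*, the valyl enzyme, had 13.96, 9.02 and 8.81 in total and 9.86, 6.74 and 7.53 in IP RPFs, which overlapped between clones although each clone fell (-0.41 ± 0.088, adjusted p = 1.40e-05 and 0.334). The members that rose were *Aars* (0.17 ± 0.030, adjusted p = 1.20e-07) and *Farsb* (0.15 ± 0.031, adjusted p = 1.11e-05). This fit has 2 residual degrees of freedom per transcript and takes nearly all of its spread from the other transcripts, so that its p-values assume that members vary as transcripts of like abundance do.

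**Figure D4:**
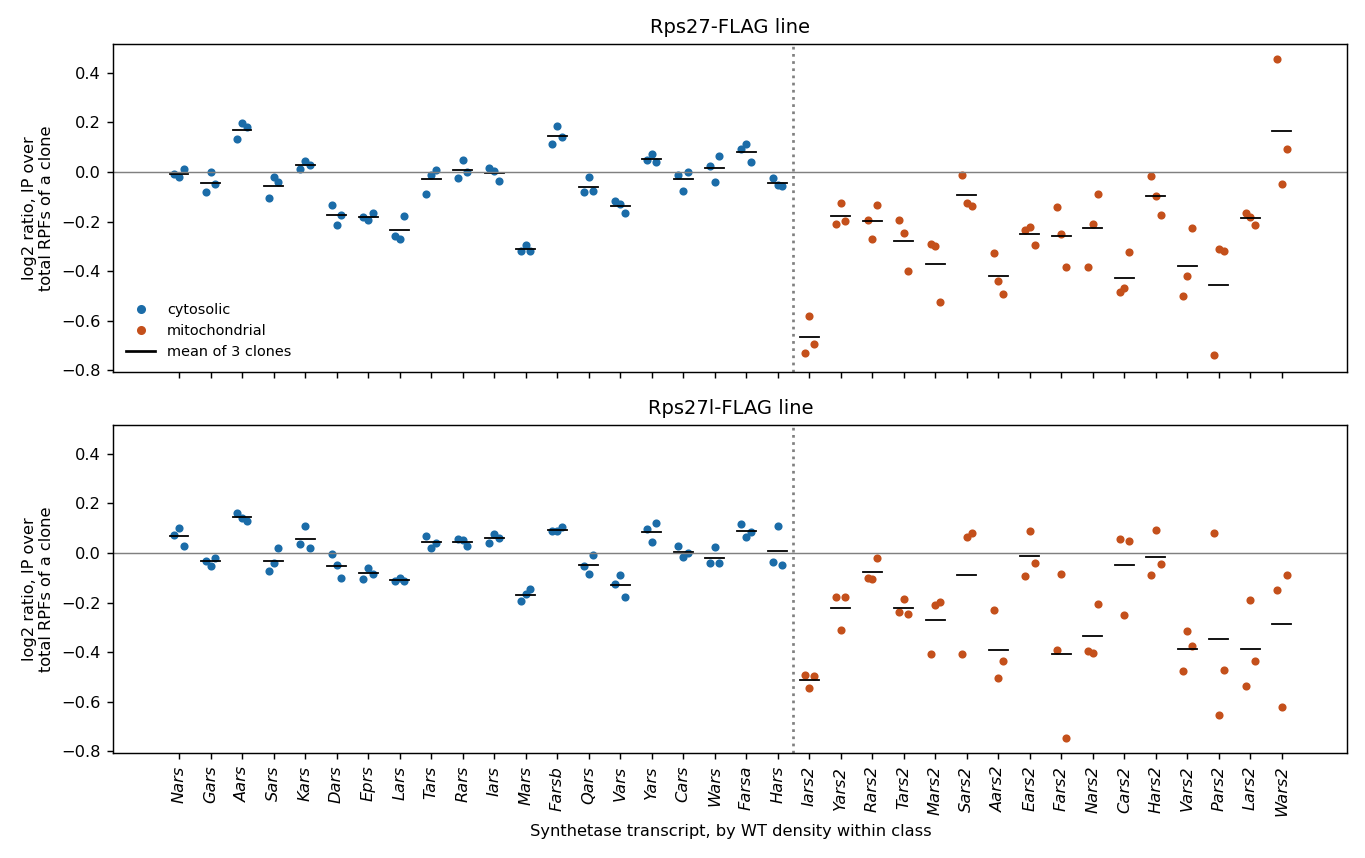
Log2 ratio of IP over total RPFs in each clone (points) for 36 members, cytosolic to the left and mitochondrial to the right of the dotted line, with the mean of 3 clones as a bar. In the *Rps27-FLAG* line (upper panel) all plotted mitochondrial means except that of *Wars2* lie below 0, and in the *Rps27l-FLAG* line (lower panel) all 16 do.

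The *Rps27l-FLAG* line, whose libraries come from other clones, was measured in the same 3 sequencing batches. The median log2 ratio of IP over total RPFs was -0.24, -0.25 and -0.21 for mitochondrial members in its 3 clones. It was 0.011, 0.023 and 0.011 for cytosolic members and -0.020, -0.035 and -0.029 for all tested transcripts. The difference between the classes was -0.25 ± 0.027 (SD, n = 3), and it lay between -0.26 and -0.23 with 1 clone left out. All 17 mitochondrial members had a fitted change below 0, and 12 of them (70.6%) were lower in every clone, against 7 of 20 cytosolic members (35%) and 32.1% of all transcripts.

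Of single members 2 of 37 fell in this line, among them *Iars2*, where 2.27% of all transcripts were called lower, and 0 members rose (0.833% of all). *Iars2* had 73.9, 79.1 and 76.6 in total and 52.5, 54.2 and 54.4 in IP RPFs, without overlap. Its log2 fold change was -0.51 ± 0.058 (adjusted p = 0.00582). Without *Rps27l-FLAG* replicate 1 or 2 no member was called, and without replicate 3 the count was 2, both lower (2.39% of all). With the clone as a block 10 of 17 mitochondrial members fell (58.8%) and 4 of 20 cytosolic members (20%), where 19% of all transcripts did, and 3 cytosolic members rose (12% of all).

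With the block, large falls in the *Rps27l-FLAG* line after that of *Iars2* included those of *Fars2*, *Lars2*, *Vars2* and *Aars2*. *Fars2*, the phenylalanyl enzyme, had 14.6, 15.5 and 23.0 in total and 11.1, 14.6 and 13.6 in IP RPFs, which overlapped, with clone ratios of -0.39, -0.086 and -0.75 (-0.41 ± 0.12, adjusted p = 0.00405, against 0.334 without the block). *Lars2* had 12.4, 11.3 and 11.4 in total and 8.56, 9.86 and 8.40 in IP RPFs (-0.39 ± 0.095, adjusted p = 6.64e-04, against 0.121). The fractions did not overlap. In the *Rps27-FLAG* line *Lars2* was also lower in all 3 clones but did not pass (-0.18 ± 0.090, adjusted p = 0.0900). The difference between the lines in the IP effect on *Lars2* did not pass (-0.21 ± 0.13, adjusted p = 0.555 by edgeR in the fit of both lines given below). *Aars2* had 16.2, 17.5 and 21.5 in total and 13.8, 12.3 and 15.9 in IP RPFs, without overlap (-0.38 ± 0.072, adjusted p = 1.58e-05, against 0.188). *Vars2* had 11.3, 11.8 and 11.5 in total and 8.11, 9.44 and 8.85 in IP RPFs, also without overlap (-0.39 ± 0.086, adjusted p = 1.95e-04, against 0.0873). The cytosolic members that rose were *Aars* (0.14 ± 0.026), *Farsb* (0.094 ± 0.030) and *Yars* (0.086 ± 0.031, adjusted p = 0.0275).

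With the block, 9 mitochondrial members fell in both lines, among them *Aars2*, *Fars2*, *Iars2*, *Mars2*, *Tars2*, *Vars2* and *Yars2*. They make up 9 of the 13 that fell in *Rps27-FLAG* and 9 of the 10 in *Rps27l-FLAG*. *Hars2*, *Sars2* and *Wars2* passed in neither. Of the cytosolic members, 4 fell in both lines (*Eprs*, *Lars*, *Mars* and *Vars*) and 2 rose in both (*Aars* and *Farsb*). Over all tested transcripts 15.5% fell and 9.48% rose in both lines. The lines share no library, but they share the pull-down procedure and the batches. Markers of mESCs, as a summed level of all 11, were also higher in the IP RPFs than in the total RPFs (5511 against 4918 normalized CPM in *Rps27-FLAG* and 5527 against 4904 in *Rps27l-FLAG*), and the part of this in the result was not tested.

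The pairs of cytosolic and mitochondrial members did not all move alike. In *Rps27-FLAG* the mean ratio was lower in IP than in total RPFs for leucine (26.4 against 27.1) and tryptophan (21.9 against 24.3). For the other pairs there, and for all pairs in *Rps27l-FLAG*, it was higher in IP RPFs. The median of the 14 ratios was 10.00 in IP and 10.17 in total RPFs of *Rps27l-FLAG* replicate 3. In the other clones it was higher in IP RPFs. Isoleucine and alanine are given here as the pairs of *Iars2* and *Aars2*. For isoleucine the ratio of *Iars* to *Iars2* was 3.14 ± 0.524 in total and 4.94 ± 0.572 in IP RPFs of *Rps27-FLAG*. In *Rps27l-FLAG* it was 2.89 ± 0.160 and 4.29 ± 0.103. For alanine, the ratio of *Aars* to *Aars2* was 17.5 ± 1.18 and 26.3 ± 2.52 in *Rps27-FLAG* and 18.6 ± 2.26 and 26.9 ± 1.66 in *Rps27l-FLAG*. In both pairs every IP library lay above the total library of its clone. *Aars* itself, whose product also clears mischarged tRNA, had 346, 366 and 352 in total and 379.5, 420.3 and 398 in IP RPFs of *Rps27-FLAG*, and 343, 313 and 363 and 383, 345 and 398 in *Rps27l-FLAG*. *Iars* did not pass in either line with the block (-0.0037 ± 0.030, adjusted p = 0.938, and 0.059 ± 0.027, adjusted p = 0.0907).

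Within the cytosolic class, the members that fell with the block were *Dars*, *Eprs*, *Lars* and *Mars* of the multisynthetase complex and *Vars* in *Rps27-FLAG*, and the same without *Dars* in *Rps27l-FLAG*. In *Rps27-FLAG* the 8 complex members had a median log2 fold change of -0.12 and the 12 others -0.018. In *Rps27l-FLAG* these medians were -0.048 and 0.025. *Eprs* had 293, 309.9 and 303 in total and 259, 271 and 269 in IP RPFs of *Rps27-FLAG*, without overlap. It fell by 0.18 on the log2 scale with the block (adjusted p = 2.36e-08, against 0.107 without). In *Rps27l-FLAG* its change was -0.083 ± 0.026 (adjusted p = 0.0112, against 0.412). *Lars*, the leucyl enzyme, had a change of -0.24 ± 0.030 in *Rps27-FLAG* (adjusted p = 6.84e-14, against 0.274) and of -0.11 ± 0.027 in *Rps27l-FLAG* (adjusted p = 8.18e-04, against 0.400). *Vars*, the valyl enzyme, is not on the list of complex members used here and has a CDS of 3789 nt. It fell by 0.14 and 0.13 on the log2 scale. With the trend of CDS length removed beside the block, as described next, the falls of *Eprs*, *Lars* and *Vars* were lost. *Eprs* then rose in both lines (0.11 ± 0.033, adjusted p = 0.00245, and 0.16 ± 0.028, adjusted p = 1.49e-05), and so did *Vars* (0.11 ± 0.031, adjusted p = 0.00161, and 0.080 ± 0.030, adjusted p = 0.0424). *Lars* had -0.0017 ± 0.032 in *Rps27-FLAG* (adjusted p = 0.977) and rose in *Rps27l-FLAG* (0.087 ± 0.028, adjusted p = 0.0207). *Mars* and *Dars* stayed lower in *Rps27-FLAG* (-0.14 ± 0.031, adjusted p = 5.26e-05, and -0.12 ± 0.032, adjusted p = 7.99e-04), and *Mars* lost its call in *Rps27l-FLAG* (-0.021 ± 0.030, adjusted p = 0.689). The other 4 complex members (*Iars*, *Kars*, *Qars* and *Rars*) passed in neither line with the block alone, before the trend was removed.

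The log2 fold change of IP over total RPFs was lower for transcripts with a longer CDS over all tested transcripts. Spearman's rho between the log2 fold change and CDS length was -0.56 in *Rps27-FLAG* and -0.53 in *Rps27l-FLAG* over 10082 transcripts, given as a description across genes of the same libraries. Among the 20 cytosolic members it was -0.34 and -0.32, and among the 17 mitochondrial members -0.52 and -0.30. The median CDS was 1656 nt for mitochondrial and 2073 nt for cytosolic members. With the trend removed from each library, the difference between the classes was -0.27 in *Rps27-FLAG* and -0.26 in *Rps27l-FLAG*, against -0.23 and -0.25 without removal.

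Removing the length trend raised the medians of both classes in both lines and turned the sign of the cytosolic one in *Rps27-FLAG*. These medians are of the changes fitted by edgeR, a measure unlike the clone ratios behind the class differences above. The cytosolic median log2 fold change went from -0.031 to 0.092 in *Rps27-FLAG* and from 0.0052 to 0.13 in *Rps27l-FLAG*. The mitochondrial median went from -0.26 to -0.19 and from -0.32 to -0.22, in the same order, and stayed below 0. Without the block no member was then called in either line, against 0.278% and 0.0892% of all transcripts. An unadjusted p under 0.05 was found for 7 members in *Rps27-FLAG* (14.7% of all) and 11 in *Rps27l-FLAG* (11.3%). With both the block and the trend removed, 11 cytosolic members rose and 2 fell in *Rps27-FLAG*, and 9 mitochondrial members fell, where 18.1% of all transcripts rose and 13% fell. In *Rps27l-FLAG* 13 cytosolic members rose and 7 mitochondrial members fell, against 14.3% and 7.85% of all. Of the mitochondrial members described above, *Vars2* lost its call in both lines (adjusted p = 0.0556 and 0.0621) and *Lars2* in *Rps27l-FLAG* (adjusted p = 0.0533). *Pars2* and *Cars2* in *Rps27-FLAG* (adjusted p = 0.00655 and 0.00236), *Fars2* in *Rps27l-FLAG* (adjusted p = 0.0172) and *Aars2* and *Iars2* in both lines kept theirs. Mitochondrial members also have the higher GC content (median 55.4% of the CDS against 51.9%) and fewer counts, and the part of either in the class difference was not tested.

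**Figure D5:**
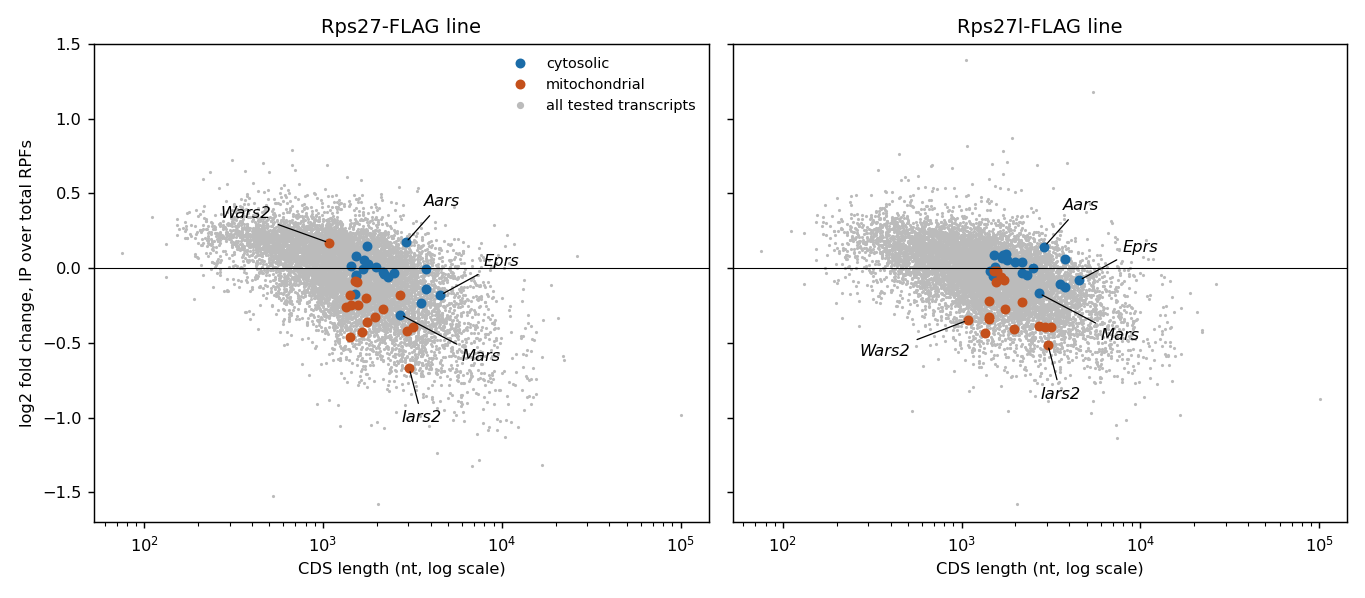
Log2 fold change of IP over total RPFs against CDS length in nt (log axis) for all tested transcripts (grey) and the 37 members, in the *Rps27-FLAG* line (left) and the *Rps27l-FLAG* line (right). The grey cloud falls with length, and *Iars2* is the lowest member in both panels (-0.67 and -0.51).

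The IP effects of the lines were then set against each other in 1 fit of 12 libraries with a term for each clone. With a call restricted to log2 fold changes beyond 0.25 either way, 0 members passed, against 0.565% of all transcripts, and voom with limma and DESeq2 also called 0. An unadjusted p under 0.05 was found for 6 members (12.1% of all), all higher in *Rps27l-FLAG*. Without the limit *Mars* passed, with a difference of 0.14 ± 0.040 (adjusted p = 0.0486, where 1.35% of all transcripts were called higher). Its clone ratios were -0.32, -0.29 and -0.32 in *Rps27-FLAG* and -0.19, -0.17 and -0.15 in *Rps27l-FLAG*, without overlap, so that the fall was smaller in the latter. The call of *Mars* was lost with any clone left out, in DESeq2, with DESeq2's size factors, without the filter, without the clone term and with the length trend removed, where the difference lay between 0.12 and 0.15. *Iars2* had clone ratios of -0.73, -0.58 and -0.69 and -0.49, -0.54 and -0.50, a difference of 0.16 ± 0.051 (adjusted p = 0.0907). Without *Rps27-FLAG* replicate 2 it passed (0.20 ± 0.056, adjusted p = 0.0356 by edgeR, where 1.35% of all transcripts were called higher), still under the limit.

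The widest differences again belonged to sparse members. *Wars2* had clone ratios of 0.46, -0.047 and 0.091 in *Rps27-FLAG* and -0.15, -0.62 and -0.088 in *Rps27l-FLAG*, a difference of -0.53 ± 0.28 (adjusted p = 0.441). *Cars2* had -0.49, -0.47 and -0.32 and 0.056, -0.25 and 0.047, a difference of 0.38 ± 0.16 (adjusted p = 0.264). All 8 complex members had a fitted difference above 0, with a median of 0.080, against a median of -0.0030 for all tested transcripts. The 12 other cytosolic members had a median of 0.015, and only 3 of them lay below 0. With the length trend removed, the medians of both classes were close to 0 (0.025 for cytosolic and 1.59e-04 for mitochondrial members).

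Of 17 other genes around tRNA charging, 16 passed the filter on low counts. *Aarsd1*, an editing factor, did not, with at most 2 counts in any library. The scaffolds of the complex lay in or near the range of its enzymes in WT total RPFs, with densities of 309 ± 19.3 for *Aimp1*, 190.0 ± 9.01 for *Aimp2* and 243 ± 3.92 for *Eef1e1*. The glutamyl-tRNA amidotransferase of mitochondria, which makes glutaminyl-tRNA there in place of a glutaminyl synthetase, had densities in the range of the mitochondrial synthetases (18.5 ± 2.09 for *Gatb*, 15.2 ± 0.586 for *Gatc* and 20.4 ± 2.94 for *Qrsl1*). *Eef1a1*, which brings charged tRNA to the cytosolic ribosome, had a density of 1438 ± 102, and its mitochondrial counterpart *Tufm* 191 ± 25.0.

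None of the 16 passed in the comparisons of total RPFs, with 0, 2 and 2 at an unadjusted p under 0.05 (2.92%, 5.69% and 5.75% of all). In the *Rps27-FLAG* IP, *Xpot*, the exporter of tRNA from the nucleus, fell by 0.33 on the log2 scale (adjusted p = 0.0420) and 0 rose. Over all transcripts 5.34% fell and 0.337% rose in this comparison. The CDS of *Xpot* has 2886 nt, and values with the length trend removed are not given for these genes. In the *Rps27l-FLAG* IP, *Eef1a1* rose (0.39 ± 0.070, adjusted p = 0.0259) and 0 fell, where 0.833% of all transcripts rose and 2.27% fell. With the block, 4 fell and 2 rose in *Rps27-FLAG* and 3 fell and 4 rose in *Rps27l-FLAG*. Over all transcripts 22.9% fell and 18.3% rose in the first line and 19% and 12% in the second. *Gatb*, *Tufm* and *Xpot* fell in both lines, *Tufm* by 0.20 and 0.11 and *Gatb* by 0.36 and 0.34 on the log2 scale, while *Eef1e1* and *Eef1a1* rose in both. Between the lines, *Eef1a1* differed by 0.18 ± 0.042 (adjusted p = 0.00438), which is under the limit of 0.25.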

How the data were processed

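RPFs were counted in 15 libraries. Per the labels and the study's methods, the authors trimmed adapters (cutadapt 2.4), discarded reads that matched structural RNAs (rRNA, tRNA or snRNA), aligned what was left (Bowtie2 2.3.4.3) to mouse transcripts of the GRCm38 build, kept unique alignments, collapsed duplicates by molecular identifier (UMI-tools 1.0.1) and counted A sites over the CDS, leaving out 15 codons at its start and 5 at its end. The deposited values are raw counts, 1 transcript per gene, and 0 columns were left out. Symbols and CDS lengths came from GENCODE M21, which named 21713 of 21727 transcripts. Totals between 3972152 and 8064166 set the counting precision, which is lowest for *Wars2*.

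Counts were scaled by TMM, separately for IP and total RPFs, and tested with edgeR 4.0.16 (quasi-likelihood, Benjamini-Hochberg, R 4.3.3) over 10085 transcripts with over 2 CPM in at least 14 libraries, without 13 encoded in mitochondria. The total RPF comparisons took all 9 total libraries and line only, each IP comparison the 6 libraries of its line, and the comparison of IP effects 12 libraries with a clone term, a limit of 0.25 and *Tmod3* not counted. Clone ratios used a pseudocount of 0.5 counts. The IP and total RPFs of a replicate come from 1 clone, and their deviations from the group means correlated with r of 0.467 to 0.791. The replicate number is also the sequencing batch, and between total libraries of different lines r was -0.16 to 0.713. Alternatives were limma 3.58.1 (voom), DESeq2 1.42.0, other scaling and filters, the replicate block, loess removal (span 0.5) of the CDS length trend and leaving out each clone. The trend was removed from each library in the fits, and from the log2 ratios of each clone for the class differences. Clones left out with the block were added after seeing the data. Scripts were tested on simulated data. For *Rps27l-FLAG* against *Rps27-FLAG* total RPFs, 0% of log2 changes of 0.25 and 22% of those of 0.5 were recovered. For the *Rps27-FLAG* IP without the block these shares were 0% and 11.5%. For the comparison of IP effects they were 30.5% and 68%, so changes of such size can be missed.

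Values in every library are given for the 3 highest and 3 lowest members of each class, members past the threshold (up to 5 each way), otherwise the largest rise and fall, and *Farsa*, *Farsb* and *Eprs*. *Dars*, *Iars*, *Lars*, *Tars* and *Vars* and the members named in counts were added after their values were seen. Single values of 1 member and the sequence of 1 promoter are not reported here. Members, lists and tests were chosen with earlier results of these data known.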

Additional observations from a re-analysis of the deposited data

Results flagged for a closer look

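The effect of the IP on *Mars* differed between the lines. The log2 fold change of IP over total RPFs in *Rps27l-FLAG* minus that in *Rps27-FLAG* was 0.14 (edgeR with a clone term, adjusted p = 0.0486), which is under the limit of 0.25, and it was higher in each *Rps27l-FLAG* clone than in each *Rps27-FLAG* clone. The call was lost with any 1 clone left out, in DESeq2 and with DESeq2's size factors. It was also lost without the filter, without the clone term and with the length trend removed.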

How the results depend on the processing

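Counts of members called in total RPFs stayed at 0 under each other test, scaling, filter, block and length setting and with any 1 clone left out. With 1 clone left out and the replicate block they lay between 0 and 2 in *Rps27l-FLAG* against WT and between 0 and 3 in *Rps27l-FLAG* against *Rps27-FLAG*, the highest without *Rps27l-FLAG* replicate 1. For the IP against total RPFs, the call was made for 3 members (*Rps27-FLAG*) and for 2 (*Rps27l-FLAG*). The replicate block gave 20 and 17, removal of the CDS length trend 0 and 0, and both together 22 and 20. Over all transcripts the block called 22.9% lower and 18.3% higher in *Rps27-FLAG*, and 19% and 12% in *Rps27l-FLAG*. Both together called 13% lower and 18.1% higher in *Rps27-FLAG*, and 7.85% and 14.3% in *Rps27l-FLAG*. The counts of members thus rose where those of all transcripts did. The block uses the clone shared by an IP and its total RPFs. In total RPFs it changed no call of a member. Over all transcripts 1.43% were then called in *Rps27l-FLAG* against WT and 1.36% in *Rps27l-FLAG* against *Rps27-FLAG*. With 1 clone left out the counts were 0 to 9 and 0 to 2. With the block as well they were 15, 17 and 18 without *Rps27-FLAG* replicates 1, 2 and 3, and 12, 16 and 13 without those of *Rps27l-FLAG*. Shares over all transcripts are not given for the IP fits with a clone left out and the block. The cause of these shifts was not tested. For the comparison of IP effects the count was 0, 1 without the limit (*Mars*), and 0 without the replicate block. The difference between the classes in *Rps27-FLAG* was -0.27 with the length trend removed. The ratio of class densities in WT was 12.2 without *Gars* and *Kars*, 8.62 for means and 9.73 paired by amino acid, and 12.7 to 13.2 with 1 clone left out. *Wars2* in *Rps27l-FLAG* against WT turned from 0.12 to -0.20 without *Rps27l-FLAG* replicate 2 and to -0.052 without WT replicate 2, and the highest value with 1 clone left out was 0.31. Removal of the length trend, without and with the block, turned *Eprs* to 0.11 and 0.11 and *Vars* to 0.11 and 0.11 in the *Rps27-FLAG* IP. In the *Rps27l-FLAG* IP it turned *Eprs* to 0.16 and 0.16, *Lars* to 0.087 and 0.087 and *Vars* to 0.079 and 0.080, and without the block *Lars* in the *Rps27-FLAG* IP to 0.0016. Of 441 values, over 31 pairs of a comparison and a member that was named by the rule or is *Eprs*, *Lars*, *Vars* or *Lars2* in the IP, 371 kept their direction and side of the threshold, 26 lost and 31 gained a call, and these 13 turned. DESeq2 gave no adjusted p for *Pars2* in *Rps27-FLAG* and *Fars2* in *Rps27l-FLAG*. Low counts limit *Wars2* most (19 to 85 per library).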
